A study of Kluyveromyces lactis with 17 samples.

Results

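The genes described here are those of the mating-type α locus of the yeast Kluyveromyces lactis: HMLALPHA1 (KLLA0_C00352g), HMLALPHA2 (KLLA0_C00374g) and the gene next to them in the reference order, KLLA0_C00396g, to which the reference gives no symbol. They were taken by identifier and are 3 of the 5335 genes in the count table. All 3 passed the filter on low counts, which left 5224 genes for testing. Their coding lengths in the reference are 786, 672 and 2694 bases.

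RNA with poly(A) tails was sequenced from the strains LRY2992 (MATa SIR2 hmlΔ hmrΔ, called WT) and LRY2993 (MATα sir2Δ hmlΔ hmrΔ, called sir2Δ). Each genotype is represented by 1 strain. After a night in minimal glucose medium with 400 µg/L nicotinic acid, the cultures spent 4 h at 400, 135, 45 or 15 µg/L of this vitamin, from which the cells make NAD+. Every strain and level had 2 replicates. WT at 400 µg/L had libraries 1, 1R and 2, and 1 and 1R share a number and were summed as replicate 1. The series text calls the replicates independent biological ones. SIR2 and mating type changed together between the strains. For genes that both strains carry, the parts of SIR2 and mating type in a strain difference cannot be told apart. The α genes have a labelled source in LRY2993 only.

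A yeast mating type is set by the genes that occupy the MAT locus. In Saccharomyces cerevisiae the α1 protein activates the α-specific genes together with Mcm1, and the α2 protein represses the a-specific genes together with Mcm1 and the Tup1-Cyc8 corepressor. The α genes also lie in a silent copy at HML, which Sir proteins keep unexpressed through the deacetylase Sir2. The reference places the 3 genes at ranks 12, 13 and 14 from the left end of chromosome C, where it has HML. Both strains lack HML and HMR per the labels, so in LRY2993 the MATα locus is the labelled source of α reads, and in LRY2992 no labelled source exists.

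Total counts ran from 24663143 to 38246270 reads per library. The deleted gene checked the strain labels: SIR2 (KLLA0_F14663g, so called here from prior knowledge, as the reference gives it no symbol) had 3428 to 5849 reads in the WT libraries and 23 to 77 in the sir2Δ libraries. The α genes also followed the labelled mating types. Among the WT libraries the most α reads were in 1R and 1, and results that rest on these are given with and without them.

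All 3 α locus genes were expressed in sir2Δ at every nicotinic acid level and had few reads in WT. HMLALPHA1, which encodes the α1 activator, had 72.1 and 74.5 CPM (counts per library size, scaled by TMM) in the sir2Δ replicates at 400 µg/L. It had 75.9 and 75.4 CPM at 135, 73.9 and 79.9 at 45, and 78.4 and 77.3 at 15 µg/L. The 8 sir2Δ values lay within 1.11 times of each other, and the replicates at 45 µg/L overlapped with those at 400, 135 and 15 µg/L. In WT the same gene had 0.249 to 1.39 CPM over 8 replicates, with a median of 0.417 CPM.

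HMLALPHA2, which encodes the α2 repressor, was the least read of the 3 genes. Its sir2Δ replicates had 23.7 and 26.3 CPM at 400 µg/L, 19.0 and 20.8 at 135, 22.4 and 25.0 at 45, and 23.3 and 23.2 at 15 µg/L. The replicates at 135 µg/L were the lowest of the 8, an order shown by 3.39% of the tested genes, and those at 45 µg/L overlapped with those at 400 and 15 µg/L. WT had 0.0567 to 0.414 CPM, with a median of 0.170 CPM.

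KLLA0_C00396g had 67.1 and 76.9 CPM in sir2Δ at 400 µg/L, 67.7 and 80.6 at 135, 93.1 and 88.1 at 45, and 88.1 and 91.5 at 15 µg/L. All 4 replicates at 45 and 15 µg/L lay above all 4 at 400 and 135 µg/L, a separation shown by 8.29% of the tested genes. WT had 0.340 to 1.92 CPM, with a median of 0.418 CPM. For each of the 3 genes all 8 sir2Δ replicates lay above all 8 WT replicates, as they did for 9.13% of the tested genes.

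**Figure D1:**
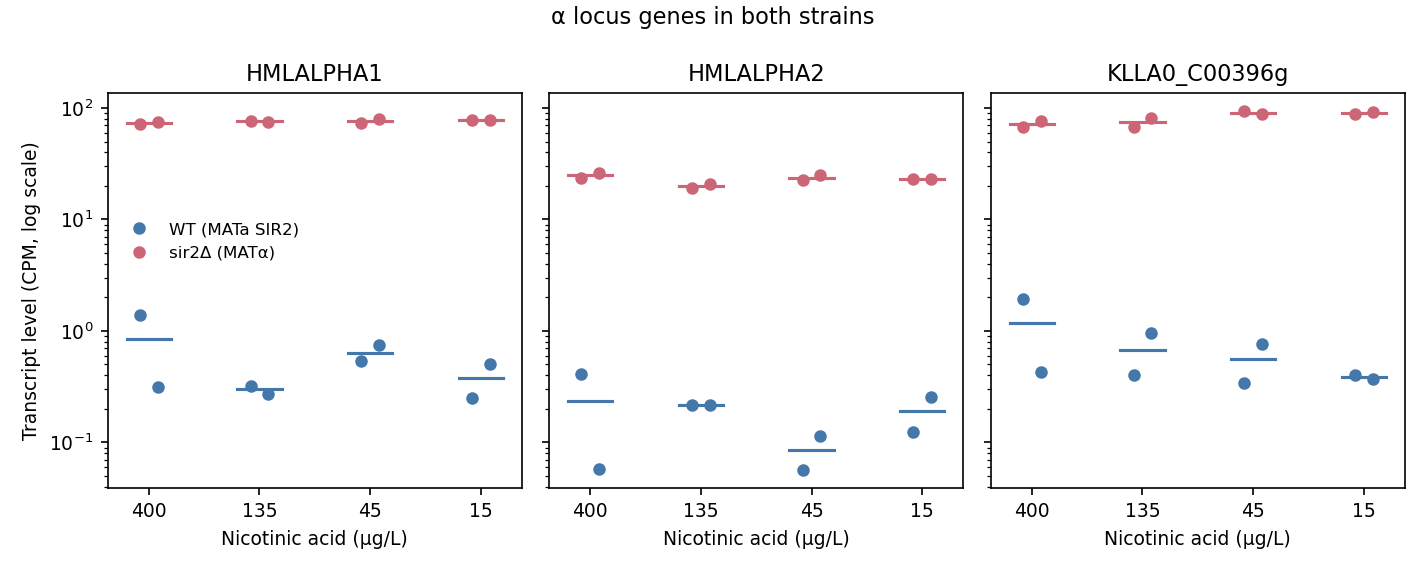
Transcript levels of the 3 α locus genes in CPM on a log axis, by nicotinic acid level, with 1 point per replicate and a bar at the mean of 2. The sir2Δ points lie between 19.0 and 93.1 CPM and the WT points between 0.0567 and 1.92 CPM.

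Averaged over the 4 levels, HMLALPHA1 was higher in sir2Δ by 7.18 ± 0.15 on the log2 scale (fitted difference ± SE; Benjamini-Hochberg adjusted p = 1.7e-15 by the quasi-likelihood test of edgeR), a fitted fold of 145. HMLALPHA2 was higher by 6.97 ± 0.17 and KLLA0_C00396g by 6.92 ± 0.18, with edgeR adjusted p of 9.6e-15 and 1.1e-14. In this comparison 30.9% of the tested genes were called higher in sir2Δ and 30.2% lower, so a call by itself is common. LRY2992 has no labelled source of α reads, so the genotypes fixed a difference in advance and these tests only describe it. Its size depends on the few WT reads. Ordered by size in either direction, the 3 α locus genes were the 4th, 6th and 7th of 5224 genes and the 3 largest rises. The places before and between them belong to KLLA0_C03157g, KLLA0_C03135g, KLLA0_B14575g and KLLA0_B14553g, with differences of -7.11 to -7.96, and SIR2 itself held place 8.

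The strain difference was called at each level for each gene. At 400 µg/L it was 6.19 ± 0.26 for HMLALPHA1, 6.42 ± 0.31 for HMLALPHA2 and 5.72 ± 0.31 for KLLA0_C00396g, where 22.5% of all genes were called higher. At 15 µg/L it was 7.65 ± 0.31, 6.89 ± 0.35 and 7.85 ± 0.39, where 14.7% were called higher. At 135 and 45 µg/L, with 16.5% and 20.9% of genes called higher, the differences ran from 6.50 to 8.06. Their sizes rest on 2 to 139 WT reads per replicate and therefore on single WT replicates. Without WT replicate 1 the differences at 400 µg/L were 7.84, 8.67 and 7.37 in the order above, and without library 1R alone that of HMLALPHA2 was 7.08. KLLA0_C00396g had 7.50 at 135 µg/L without WT replicate 4 and 8.04 at 45 µg/L without WT replicate 6. Without WT replicate 8 the values at 15 µg/L were 8.27 for HMLALPHA1 and 7.50 for HMLALPHA2.

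Within sir2Δ the 3 genes stood at unequal levels per length of coding sequence. HMLALPHA1 had 96.6 ± 3.21 CPM per kb (SD, n = 8, range 91.7 to 101.6), above 73.1% of the tested genes. HMLALPHA2 had 34.2 ± 3.39 CPM per kb (range 28.3 to 39.1), and KLLA0_C00396g had 30.3 ± 3.82 (range 24.9 to 34.6). The median gene had 41.9 CPM per kb in this strain. The level of HMLALPHA1 did not overlap with those of its neighbours, whereas the ranges of HMLALPHA2 and KLLA0_C00396g overlapped.

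HMLALPHA1 was among the steadiest genes of sir2Δ across the nicotinic acid levels. Its coefficient of variation over the 8 replicates was 3.32%, and 0.938% of the 5224 tested genes had a lower one. The coefficient was 9.91% for HMLALPHA2 and 12.6% for KLLA0_C00396g, against a median of 9.88% over all tested genes. These values describe the 8 libraries and mix replicate spread with any response to the vitamin.

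The response of sir2Δ to less nicotinic acid was then tested, which asks whether the MATα genes follow the NAD+ supply when Sir2 is absent. HMLALPHA1 changed by 0.09 ± 0.18 on the log2 scale from 400 to 15 µg/L (95% interval -0.31 to 0.48; edgeR adjusted p = 0.797) and was not called. HMLALPHA2 changed by -0.11 ± 0.21 (interval -0.54 to 0.33; edgeR adjusted p = 0.776) and was not called either. KLLA0_C00396g changed by 0.32 ± 0.23 (interval -0.16 to 0.80; edgeR adjusted p = 0.367), and 17.6% of all genes were called in this comparison. None of the 3 genes was called by edgeR at 45 or 135 µg/L, where 18.6% and 1.9% of genes were, or for the slope on log2 nicotinic acid, where 20.8% were. At an unadjusted p under 0.05 the count was 0 in each of these 4 comparisons, and DESeq2 called 0 as well.

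These tests share 1 spread per gene over all groups, including the WT groups with few reads. When only the groups compared were fitted, 3 calls appeared. KLLA0_C00396g was then higher at 15 than at 400 µg/L by 0.31 ± 0.08 (interval 0.14 to 0.48; edgeR adjusted p = 0.00521, with 29.4% of genes called). Over the 8 sir2Δ replicates alone, its slope was -0.07 ± 0.02 per log2 unit of nicotinic acid (edgeR adjusted p = 0.0189, with 24.6% of genes called). HMLALPHA2 was lower at 135 than at 400 µg/L by -0.34 ± 0.12 (edgeR adjusted p = 0.0321, with 19.5% of genes called). HMLALPHA1 was not called in these fits, and its interval for 15 against 400 µg/L was -0.08 to 0.24.

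**Figure D2:**
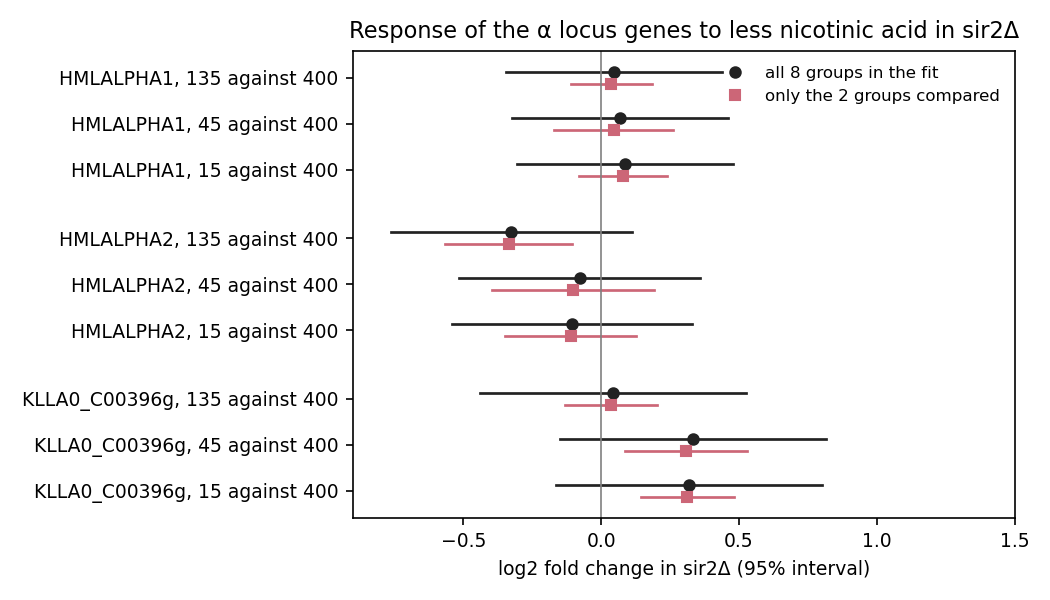
Log2 fold change of each α locus gene in sir2Δ at 135, 45 and 15 µg/L against 400 µg/L, with 95% intervals, from the fit over all 8 groups (black circles) and from the fit of the 2 groups compared (red squares). The estimates are close in both fits, and the intervals of the second, which are not adjusted for the number of genes, exclude 0 for HMLALPHA2 at 135 and for KLLA0_C00396g at 45 and 15 µg/L.

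Ratios of reads within a library do not depend on scaling and were used to ask whether the genes kept 1 proportion. HMLALPHA2 had 0.329 and 0.353 reads for each HMLALPHA1 read at 400 µg/L, 0.251 and 0.276 at 135, 0.303 and 0.313 at 45, and 0.297 and 0.300 at 15 µg/L. The ratio was lowest at 135 and highest at 400 µg/L, with no overlap between these levels and the rest. Its correlation with log2 nicotinic acid was r = 0.27 (exact permutation p = 0.513) and rho = 0.39 (exact permutation p = 0.361) over 8 libraries.

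KLLA0_C00396g had 2.83 and 2.93 reads for each HMLALPHA2 read at 400 µg/L and 3.53 to 4.16 in the 6 libraries at lower levels, so the 400 µg/L libraries were the lowest. This ratio correlated with log2 nicotinic acid at r = -0.78 (two-sided exact permutation p = 0.0214, adjusted p = 0.0643 over 3 ratios) and rho = -0.68 (exact permutation p = 0.0825, adjusted p = 0.124). Without the 2 libraries at 15 µg/L, r was -0.84 (exact permutation p = 0.0667, n = 6). Those 6 libraries keep both at 400 µg/L, and r without the 400 µg/L libraries is not given here. The mean ratio was 2.88 at 400 µg/L and 3.71, 3.84 and 3.86 at 135, 45 and 15 µg/L. The ratio of KLLA0_C00396g to HMLALPHA1 gave r = -0.70 (exact permutation p = 0.0563, adjusted p = 0.0845) and rho = -0.78 (exact permutation p = 0.0349, adjusted p = 0.105). Without the libraries at 15 µg/L it gave r = -0.67 (exact permutation p = 0.144, n = 6). No ratio passed the threshold of 0.05 after adjustment on the log2 scale of nicotinic acid. On a linear scale the ratio of KLLA0_C00396g to HMLALPHA2 did, with r = -0.92 (exact permutation, adjusted p = 0.031).

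**Figure D3:**
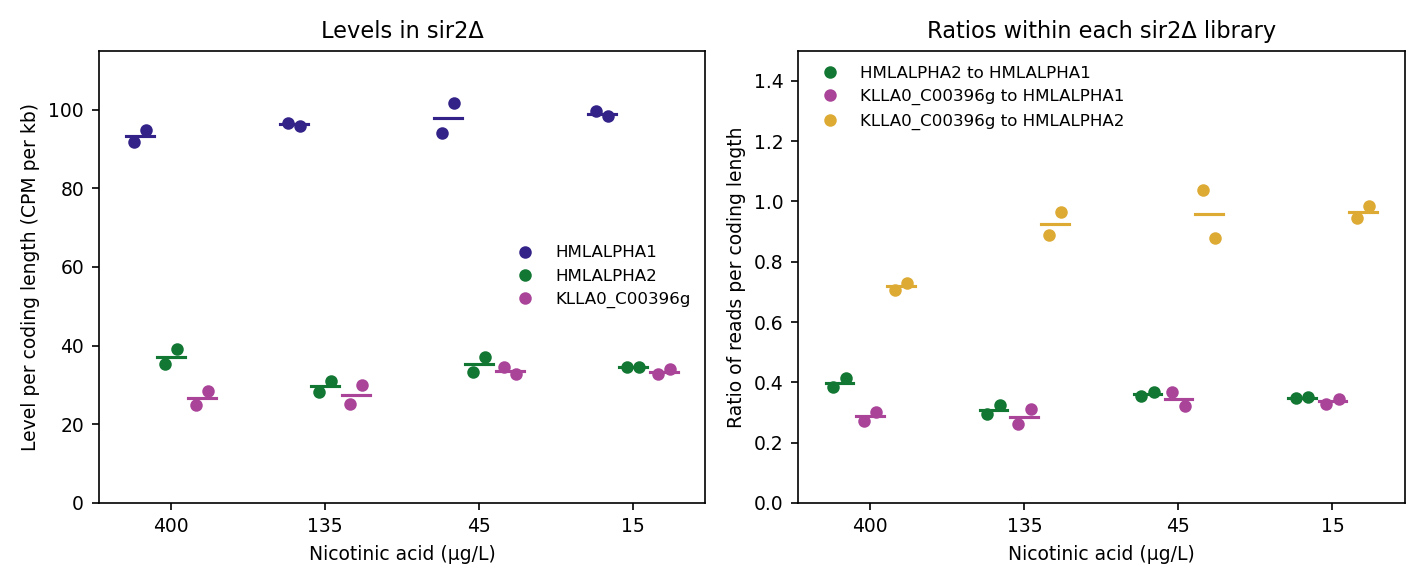
Left, level of each α locus gene in sir2Δ in CPM per kb of coding length; right, ratios of reads per coding length between the genes within each sir2Δ library; 1 point per library and a bar at the mean of 2. HMLALPHA1 lies between 91.7 and 101.6 CPM per kb, and the ratio of KLLA0_C00396g to HMLALPHA2 is lowest in both 400 µg/L libraries.

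The few α reads in WT were uneven between libraries. For HMLALPHA1, library 1R of WT at 400 µg/L had 62 reads and library 1 had 39, against 11 in library 2. The other WT libraries had 12 and 10 reads at 135 µg/L, 19 and 26 at 45, and 8 and 18 at 15 µg/L. Libraries 1 and 1R were thus the highest, and the remaining 7 libraries had a median of 12 reads.

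KLLA0_C00396g showed the same order, with 94 reads in library 1R, 45 in library 1 and 12 to 35 in the other 7. HMLALPHA2 had 20 and 10 reads in 1R and 1 and 2 to 9 elsewhere. As a rate per total reads, library 1R reached 2.57% of the sir2Δ mean at the same level for HMLALPHA1, 2.44% for HMLALPHA2 and 3.97% for KLLA0_C00396g. The 7 libraries other than 1 and 1R had 0.333% to 1.00% for HMLALPHA1, 0.274% to 1.25% for HMLALPHA2 and 0.443% to 1.47% for KLLA0_C00396g. The 2 reads of HMLALPHA2 in libraries 2 and 5 are under 3 reads, the one-sided limit taken here for a count of 0. The titles of libraries 1 and 1R, and of sir2Δ library 8, carry the prefix RESUB, whose meaning the labels do not give.

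Over the 9 WT libraries 541 reads fell on the 3 genes, 37.9% on HMLALPHA1 (95% exact binomial interval 33.8% to 42.1%), 12.4% on HMLALPHA2 (9.73% to 15.5%) and 49.7% on KLLA0_C00396g (45.4% to 54.0%). In sir2Δ the shares of 44869 reads were 42.1%, 12.7% and 45.2%. The sir2Δ shares of HMLALPHA1 and HMLALPHA2 lie inside the WT intervals and that of KLLA0_C00396g just below its interval. The difference in shares was not tested, and the intervals cover counting error only. The shares in WT varied between groups. At 135 µg/L HMLALPHA1 held 25.0% of 88 WT reads (16.4% to 35.4%) and 44.5% of the sir2Δ reads. At 45 µg/L the order was the other way, with 50.0% of 90 WT reads (39.3% to 60.7%) and 40.0% of the sir2Δ reads. Whether the shares follow nicotinic acid was not tested. In the 7 WT libraries other than 1 and 1R the shares were 38.4%, 13.7% and 48.0% of 271 reads.

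**Figure D4:**
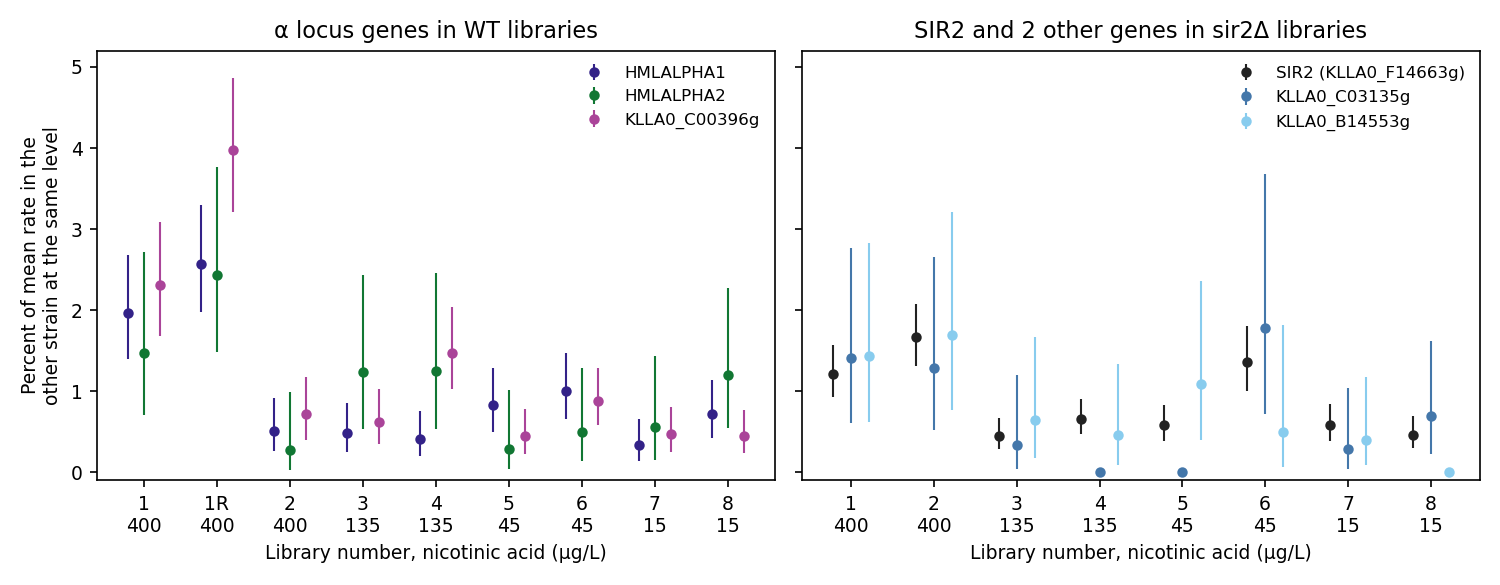
Left, reads of the α locus genes in each WT library; right, reads of SIR2, KLLA0_C03135g and KLLA0_B14553g in each sir2Δ library, all as a percent of the mean rate in the other strain at the same level, with 95% Poisson intervals where a library had reads. In WT, library 1R is highest at 2.44% to 3.97%. In sir2Δ the SIR2 points lie between 0.452% and 1.66%. KLLA0_C03157g and KLLA0_B14575g, which are not drawn, reached 7.34% and 9.02% in single sir2Δ libraries at 400 µg/L.

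In WT the reads of HMLALPHA1 and KLLA0_C00396g were lower at 15 than at 400 µg/L in the fit over all groups, by -1.37 ± 0.47 and -1.81 ± 0.56 (edgeR adjusted p = 0.0440 and 0.0248), in a comparison where 10.3% of genes were called lower. HMLALPHA2 had -0.58 ± 0.58 and was not called. HMLALPHA2 did not pass the filter when only these WT groups were fitted, so its values here only describe few reads. Without libraries 1 and 1R together the values were 0.28 ± 0.45 for HMLALPHA1 and -0.16 ± 0.60 for KLLA0_C00396g (edgeR adjusted p = 0.740 and 0.886), and 1.68 ± 0.82 for HMLALPHA2. Without library 1 alone the calls were lost at about the same size, -1.32 and -1.90 (edgeR adjusted p = 0.0697 and 0.0655). Without 1R alone the values were smaller, -0.96 and -1.22 (edgeR adjusted p = 0.179 and 0.140). Without library 7 of WT at 15 µg/L HMLALPHA1 had -0.96 and KLLA0_C00396g -1.87 (edgeR adjusted p = 0.282 and 0.113). Without library 8 they had -1.99 and -1.74 (edgeR adjusted p = 0.0569 and 0.135). The edgeR adjusted p of HMLALPHA1 was 0.0565 to 0.0611 on leaving out a sir2Δ replicate at 400, 135 or 15 µg/L or a WT replicate at 135 µg/L. The difference between the strains in this change was 2.13 ± 0.60 for KLLA0_C00396g (edgeR adjusted p = 0.0217, with 17.2% of genes called) and 0.48 ± 0.62 without libraries 1 and 1R. That call was lost in 10 of 25 alternatives.

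The reference lists the α genes at HML, which both strains lack per the labels. Their neighbours in the reference order therefore flank HML and not the MATα locus of LRY2993. These neighbours also differed between the strains, by far less. KLLA0_C00330g, the gene before HMLALPHA1, had 10.6 to 17.6 CPM in sir2Δ and 4.68 to 6.95 in WT. These ranges did not overlap, as was so for 9.13% of the tested genes. Its difference was 1.36 ± 0.09 on the log2 scale over the 4 levels (edgeR adjusted p = 1.3e-09). Library 1 of WT had 319 reads of it and the other WT libraries 164 to 208. It was not called between 15 and 400 µg/L in either strain (-0.20 ± 0.18 in WT and -0.26 ± 0.17 in sir2Δ). CHA1, the gene after KLLA0_C00396g and known in Saccharomyces cerevisiae as a serine and threonine deaminase, had 25.4 to 32.1 CPM in sir2Δ and 16.7 to 22.3 in WT, a difference of 0.53 ± 0.06 (edgeR adjusted p = 2.0e-06).

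All 10 neighbours, 5 on each side, were called in the average over levels, where 61.2% of all genes were. In this average, of the 5 on the side of the chromosome end, 4 were higher in sir2Δ and GEX1, a glutathione exchanger in Saccharomyces cerevisiae, was lower (-0.24 ± 0.05). On the other side CHA1 was higher, and VAC17 (-0.29 ± 0.04), MRC1 (-0.59 ± 0.05), KRR1 (-1.13 ± 0.05) and ADF1 (-0.63 ± 0.09) were lower. The calls depended on the level. At 400 µg/L all but GEX1 (-0.01) were called, where 22.5% of all genes were called higher and 22.3% lower. At 15 µg/L KLLA0_C00242g (0.40), KLLA0_C00264g (0.05), KLLA0_C00286g (0.16), CHA1 (0.34) and ADF1 (-0.45) were not called, where 14.7% of all genes were called higher and 16% lower. MRC1 is a mediator of the replication checkpoint and KRR1 a factor of small ribosomal subunit assembly. Around KLLA0_C03135g and KLLA0_C03157g, elsewhere on the chromosome and lower in sir2Δ by -7.29 ± 0.23 and -7.96 ± 0.19, 1 of 10 neighbours was higher and 1 lower, with values from -0.25 to 0.21. In sir2Δ, KLLA0_C00264g (-0.48 ± 0.10) and KLLA0_C00286g (-0.65 ± 0.09) were lower at 15 than at 400 µg/L and KRR1 was higher (0.89 ± 0.11). The other neighbours of the α locus genes were not called in this comparison, where 17.6% of all genes were. How far the HML deletion reaches into its neighbours is not given in the sources used here.

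**Figure D5:**
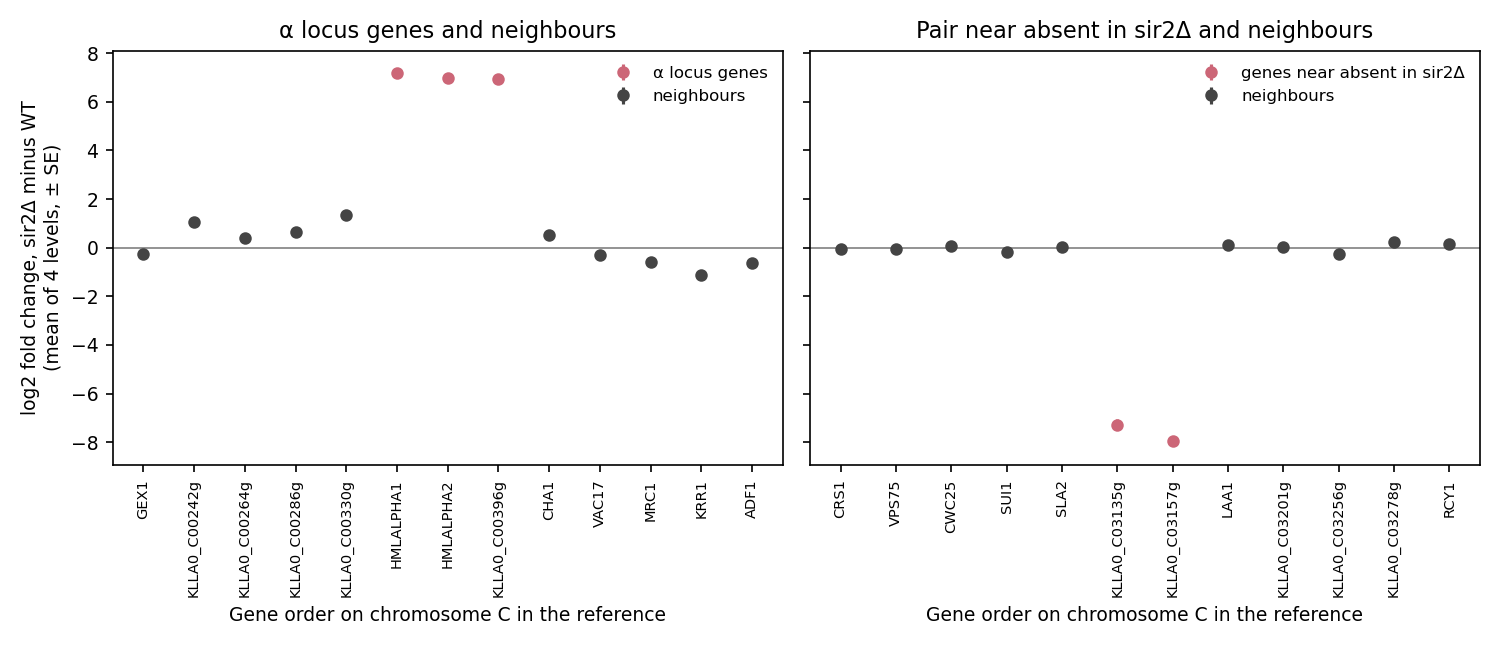
Log2 fold change of sir2Δ against WT averaged over 4 levels, with SE bars (mostly smaller than the points), for the α locus genes and 5 neighbours on each side (left) and for the pair KLLA0_C03135g and KLLA0_C03157g with theirs (right), in reference gene order. The α locus genes lie at 6.92 to 7.18 and their neighbours at -1.13 to 1.36.

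Genes that the α1 and α2 proteins are known to act on in Saccharomyces cerevisiae were then set beside their regulators. Of the α-specific names, 2 had a measured gene. STE3, the a-factor receptor, was higher in sir2Δ by 0.17 ± 0.05 averaged over levels (edgeR adjusted p = 0.00575), with 78.1 CPM against 69.6 in WT. SAG1, the α-agglutinin, had -0.09 ± 0.06 and was not called. The median of these genes was 0.04, against -0.0019 over all tested genes.

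Of 6 measured a-specific genes, 2 were higher and 2 lower in the average over levels, with a median of 0.12, where 30.9% and 30.2% of all genes were. At 400 µg/L 3 were higher and 1 lower (median 0.43), against 22.5% and 22.3% of all genes. At 15 µg/L 1 was higher and 4 were lower (median -0.57), against 14.7% and 16% of all genes. AGA2, an agglutinin subunit, was higher in sir2Δ in the average (2.46 ± 0.09), as was BAR1, the protease that cleaves α-factor (1.16 ± 0.06). STE2, the α-factor receptor, was lower in the average (-0.53 ± 0.05), as was STE6, the a-factor exporter (-0.33 ± 0.05). By level, BAR1 was called higher in sir2Δ at 400 µg/L (1.90) and lower at 15 µg/L (-0.43). STE2 was not called at 400 µg/L (-0.24) and was called lower at 15 µg/L (-1.70). AGA2 was called higher and STE6 lower at both of these levels. In sir2Δ 0 of the 6 were called between 15 and 400 µg/L by edgeR, and 0 at an unadjusted p under 0.05, where 17.6% of all genes were called. In WT 5 of the 6 rose at 15 µg/L, where 15.8% of all genes did.

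Of 3 measured cofactor genes, 1 was called in the average over levels, where 61.2% of all genes were. TUP1 (-0.05 ± 0.05) and CYC8 (-0.08 ± 0.05) were not called between the strains, and STE12, the transcription factor of the pheromone response, was higher in sir2Δ by 0.22 ± 0.05 (edgeR adjusted p = 6.7e-04). No gene with the symbol MCM1 was matched. Of 16 measured mating and switching genes, 10 were higher and 2 lower in sir2Δ in the average, with a median of 0.21, where 30.9% and 30.2% of all genes were. At 400 µg/L 10 were higher and 0 lower by edgeR (median 0.35), against 22.5% and 22.3% of all genes. The count lower at an unadjusted p under 0.05 was also 0. At 15 µg/L 1 was higher and 3 were lower (median 0.08), against 14.7% and 16% of all genes. The largest differences in the average were in the G-protein subunits STE18 (2.08 ± 0.10), GPA1 (1.26 ± 0.06) and STE4 (0.65 ± 0.04) and the meiotic inducer IME1 (0.73 ± 0.05). These averages hide a dependence on level. At 400 µg/L the differences were 2.95, 2.39, 1.68 and 1.60 in that order, all called. At 15 µg/L they were 0.59, -0.29, -0.67 and -0.01, with STE18 called higher, STE4 called lower and GPA1 and IME1 not called. RME1, a regulator of meiosis and, in K. lactis, of mating-type switching, had 0.00 ± 0.06 in the average and was not called there. It was called higher in sir2Δ at 400 µg/L (0.34, edgeR adjusted p = 0.0404) and lower at 15 µg/L (-0.44, edgeR adjusted p = 0.0158).

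Of 6 measured silencing genes other than SIR2, 2 were higher and 2 lower in sir2Δ in the average over levels, with a median of 0.04, a share near the 61.2% of all genes called. The largest differences were in RIF1, a telomere protein that binds Rap1 (-0.59 ± 0.04), HST2, a relative of SIR2 (-0.56 ± 0.13), and ESC1, a nuclear periphery protein (0.32 ± 0.05). RAP1 (0.03 ± 0.04) and ORC1 (0.04 ± 0.05) were not called. SUM1, a repressor of meiotic genes, was higher by 0.29 ± 0.05 in the average. At 400 µg/L the differences were -0.67 for RIF1, -1.13 for HST2, 0.46 for ESC1 and 0.58 for SUM1, all called. At 15 µg/L they were -0.71, -0.37, -0.01 and -0.10 in that order, and only RIF1 was called.

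The genes whose pattern was most like that of HMLALPHA1 were its own neighbours. Over the 16 columns of the fit, the Pearson correlation of log2 CPM with HMLALPHA1 was 0.992 for KLLA0_C00396g and 0.988 for HMLALPHA2. The next 8 genes had 0.973 to 0.976, and all share the strain difference with it, so these values are given as a description. They were KLLA0_C18887g, the glycolytic genes GPM1 and TPI1, the endonuclease subunit SLX1, KLLA0_F00506g, the sporulation septin SPR3, the Arp2/3 subunit ARC35 and the adenylate kinase ADK1. Their strain differences were far smaller, from 0.49 ± 0.04 for ARC35 to 1.67 ± 0.05 for SPR3, and GPM1 had 8090 CPM in sir2Δ and 4188 in WT.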

How the data were processed

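The authors deposited whole-number read counts for 5335 genes in 17 libraries. The submitters' processing notes name Bowtie2 and featureCounts, and also MultiQC, FastQC, SAMtools, cutadapt and DESeq2, in no stated order. Which versions, settings, build, strand and multi-mapping rules were applied is not given in the sources used here, so reads of overlapping genes or near copies could be shared or lost. Symbols, coding lengths and gene order came from the RefSeq table of ASM251v1, where all identifiers matched. Sequences and coordinates are not used here. A deposited table of normalized values was not used.

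The counts of libraries 1 and 1R were summed. edgeR 4.0.16 in R 4.3.3 (filterByExpr minimum count 10, TMM, robust quasi-likelihood, 1 mean for each of 8 groups over 16 columns) tested 11 comparisons over 5224 genes. A Benjamini-Hochberg adjusted p under 0.05 is a call. Fold changes use a prior count of 0.125. Fits were tested on simulated data. Ratios were tested by exact permutation over 8 libraries in Python 3.11.15. Alternatives included DESeq2 1.42.0, other scalings, no filter, fits of the compared groups only and each replicate left out. Total counts had a median of 33734530.

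Beyond the members, the genes named were SIR2, the 5 genes on each side of the α locus and of the pair KLLA0_C03135g and KLLA0_C03157g, up to 4 genes of each list by size of strain difference, and the 8 genes most alike. RME1, RAP1, ORC1, SUM1, KLLA0_B14553g and KLLA0_B14575g were named after their values were seen. The members and lists were chosen with earlier results of these data known. Intervals of reads cover counting error only.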

Additional observations from a re-analysis of the deposited data

Results flagged for a closer look

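The change of KLLA0_C00396g from 400 to 15 µg/L was called different between the strains in the fit over all groups. It was 0.32 ± 0.23 in sir2Δ and -1.81 ± 0.56 in WT, a difference of 2.13 ± 0.60 on the log2 scale (edgeR quasi-likelihood test of the interaction, adjusted p = 0.0217, where 17.2% of genes were called). The WT part rests on 139 and 15 reads at 400 µg/L and on 13 and 13 reads at 15 µg/L. LRY2992 has no labelled source of α reads, so the interaction sets the sir2Δ change beside few reads of unlabelled origin. Without WT replicate 1, which holds libraries 1 and 1R, the difference was 0.48 ± 0.62 (edgeR adjusted p = 0.665). The call was lost in 10 of 25 alternatives. Leaving out sir2Δ replicate 1 at 400 µg/L gave 2.03 (edgeR adjusted p = 0.0578), and sir2Δ replicate 8 at 15 µg/L gave 2.10 (0.0533). Leaving out WT replicate 7 or 8 at 15 µg/L gave 2.18 (edgeR adjusted p = 0.0873) and 2.06 (0.109). HMLALPHA1 had 1.45 ± 0.51 (edgeR adjusted p = 0.0628) and HMLALPHA2 had 0.47 ± 0.61 (edgeR adjusted p = 0.677), and neither was called.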

How the results depend on the processing

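The strain differences of the 3 α locus genes, averaged and at each level, kept their direction and call under all 24 or 25 alternatives run. The averages ranged over 7.06 to 7.59 for HMLALPHA1, 6.84 to 7.53 for HMLALPHA2 and 6.80 to 7.33 for KLLA0_C00396g. The changes with nicotinic acid were less stable, and for all of them below the cause was not tested. In sir2Δ, fits of only the compared groups added calls for HMLALPHA2 at 135 µg/L (-0.34) and for KLLA0_C00396g at 15 µg/L (0.31) and in slope (-0.0701). With upper-quartile scaling the HMLALPHA2 slope was -0.00562. For HMLALPHA1 in WT (15 against 400 µg/L) the call was lost with DESeq2 (-1.22), only the compared groups (-1.28), libraries 1 and 1R apart (-1.43), without library 1 (-1.32) and without 1R (-0.96). For KLLA0_C00396g in WT it was lost with only the compared groups (-1.71), without library 1 (-1.90) and without 1R (-1.22), and HMLALPHA2 turned to 0.0891 without 1R. HMLALPHA2 in WT could not be fitted with only the compared groups, since it did not pass the filter. The strain difference in this change lost its call for KLLA0_C00396g with DESeq2 (1.95), libraries 1 and 1R apart (2.19), without library 1 (2.21) and without 1R (1.54), and that of HMLALPHA2 turned to -0.19 without 1R. On a linear scale of nicotinic acid, the ratio of KLLA0_C00396g to HMLALPHA2 gave r = -0.92, with an adjusted exact permutation p of 0.031.

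Leaving out each replicate in turn gave -1.99 to 0.28 for HMLALPHA1 in WT, -1.19 to 1.68 for HMLALPHA2 and -2.30 to -0.16 for KLLA0_C00396g. The strain difference in this change ran from -0.19 to 2.08, -1.78 to 1.09 and 0.48 to 2.62 in the same order. In sir2Δ, KLLA0_C00396g at 135 µg/L ran from -0.0883 to 0.163, HMLALPHA2 at 45 µg/L from -0.16 to 0.00068 and its slope from -0.0103 to 0.0177. The correlation of the HMLALPHA2 to HMLALPHA1 ratio ran from -0.057 to 0.57. With the library number as a replicate block, KLLA0_C00396g had 2.10 in the strain difference and lost its call. Same-numbered libraries of the strains deviated together with r of -0.13, -0.0954, 0.32 and 0.19 at 400, 135, 45 and 15 µg/L, so the numbers were taken as names only. Levels within a strain share no numbers. The number of genes called moved by over 1.5 times in 9 comparisons: 1 to 1010 against 99 for sir2Δ at 135 µg/L (254 with DESeq2), 275 to 1251 against 970 at 45, 444 to 1527 against 922 at 15 and 522 to 1331 against 1085 in slope. The others were 1080 to 2879 against 1661, 1345 to 2341 against 2069 and 976 to 1890 against 1605 for the strains at 135, 45 and 15 µg/L, 841 to 1584 against 1362 for WT, and 570 to 1198 against 899 for the strain difference in the change.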

Other observations

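Genes near absent in sir2Δ had small counts there. KLLA0_C03135g had 8 and 7 reads in the sir2Δ libraries at 400 µg/L, 2 and 0 at 135, 0 and 7 at 45, and 2 and 5 at 15 µg/L. KLLA0_C03157g had 12 and 13 reads at 400 µg/L and 0 to 8 elsewhere. SIR2 had 59 and 77 reads at 400 µg/L, 25 and 39 at 135, 29 and 49 at 45, and 28 and 23 at 15 µg/L. For KLLA0_C03157g the libraries at 400 µg/L were the highest of the 8 in reads and in reads per total count. For SIR2 they were the highest in reads, but per total count library 6 at 45 µg/L exceeded library 1 at 400 µg/L (1.36% against 1.22% of the WT mean rate at the same level).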
